A study of Mus musculus with 15 samples.

Results

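The 10 genes described here encode enzymes that make or break down prostaglandins and leukotrienes, and 1 partner protein of such an enzyme (Alox5ap). They are Ptgs1, Ptgs2, Ptges, Ptgis, Tbxas1, Hpgd, Alox5, Alox5ap, Alox15 and Ltc4s. They were taken by symbol from a table of 33340 mouse genes, each had reads, and all 10 were among the 17457 genes tested. RNA-seq of polyadenylated RNA from whole lung compared C57BL/6 mice at day 0 with mice at days 7, 14 and 21 after bleomycin, which breaks DNA and is used to bring on lung fibrosis in mice. The drug was given into the trachea in 50 µL at 5 U/kg, and the study methods describe male mice, aged 10 to 12 weeks for this model. Days 0, 7 and 14 have 4 libraries each and day 21 has 3. The 4 day 0 libraries are titled as controls, and 3 of them carry no treatment. The title and the treatment label of day 0 replicate 4 disagree, since the label names bleomycin. The title was followed, and without this library the same number of the 10 genes, 4, passed the test at each later day. A whole lung is a mixture of cells, so fewer cells of a type and less RNA per cell cannot be told apart.

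Eicosanoids are short-range lipid signals made from arachidonic acid, which phospholipases release from membranes. Cyclooxygenases turn it into prostaglandin H, and terminal synthases then make prostaglandin E, prostacyclin or thromboxane from it. Lipoxygenases lead instead to leukotrienes and hydroxylated fatty acids, and in the lung these lipids are known for effects on vessel tone, airway tone, white cell recruitment and fibroblasts.

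Libraries held between 15652008 and 18020661 counts. Sftpc, the surfactant gene of alveolar type 2 cells, stood at 19388 ± 4022.6 CPM (counts scaled to library size with TMM factors, here and below; SD, n = 4) at day 0, so this defining lung marker was abundant. The share of counts from 16 mitochondrial genes varied within days. It was 2.03% to 2.15% in the 4 day 7 libraries, 2.28% and 2.31% in 2 day 0 libraries, and 4.04% and 4.22% in the other 2. At day 14, 1 library was at 2.1% and 3 were at 3.74% to 4.14%, and day 21 ranged from 2.66% to 4.01%. The labels name no batch. For days 7 and 14 values are therefore also given with this share as a covariate and within libraries of alike share (under 2.5%, or over 3.5%).

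A gene was called higher or lower when its Benjamini-Hochberg adjusted p from edgeR's quasi-likelihood test was under 0.05 and its fold change over 1.5. Against day 0, 3 of the 10 genes were higher and 1 was lower at day 7, where 8.78% of all tested genes were higher and 7.36% lower. The counts were also 3 and 1 at day 14, against 12% and 11.2% of all genes. They were 3 and 1 at day 21, against 12.4% and 10.1%. Ptgs1, Ptges and Tbxas1 were the higher genes and Hpgd the lower gene at each of the 3 days. The 3 comparisons share the same day 0 libraries. The median log2 fold change of the 10 genes was 0.06 at day 7, 0.42 at day 14 and 0.38 at day 21, and that of all tested genes was 0.01, 0.02 and 0.02.

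**Figure D1:**
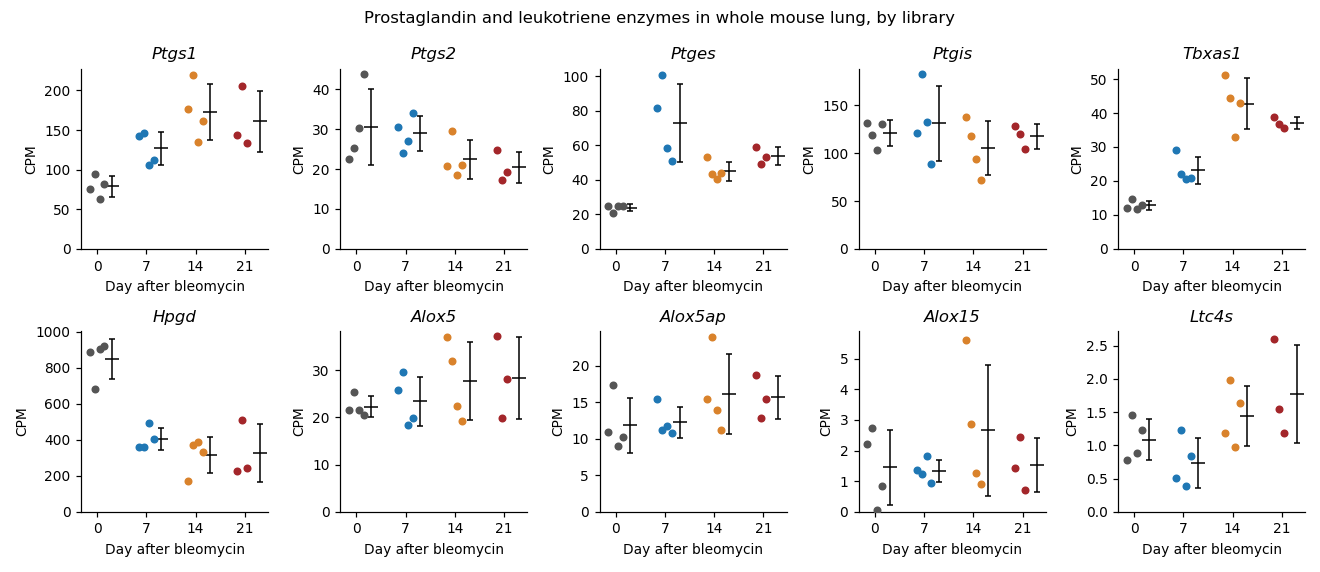
CPM of each of the 10 enzyme genes (y axis, each panel from 0) by day after bleomycin (x axis); points are libraries and the bars beside them give the mean and SD of 4 libraries (3 at day 21). Ptgs1, Ptges and Tbxas1 had every later library above every day 0 library, Hpgd had every later library below 683 CPM, its lowest day 0 value, and the other 6 genes overlapped between day 0 and each later day.

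The sequences upstream of the starts of the 4 genes that changed are printed with that of Ptgs2, the inducible cyclooxygenase, which did not pass the test. They are the 120 bases before the annotated start of the RefSeq promoter table on GRCm38.p6, read 5′ to 3′ on the strand of the gene. Capitals mark matches on either strand to the TATA box core as TATAAA, the GC box core as GGGCGG, the nuclear factor Y box core as CCAAT, the site of AP-1 factors as TGANTCA, the core of cyclic AMP response elements as TGACGT, or the core bound by ETS factors as GAGGAA. The windows are chr2:36230306-36230425 (+) for Ptgs1, chr1:150099911-150100030 (+) for Ptgs2, chr2:30903298-30903417 (-) for Ptges, chr6:38918866-38918985 (+) for Tbxas1 and chr8:56294432-56294551 (+) for Hpgd.
Ptgs1: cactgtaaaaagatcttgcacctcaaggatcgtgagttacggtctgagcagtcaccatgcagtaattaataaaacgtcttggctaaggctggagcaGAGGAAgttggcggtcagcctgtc
Ptgs2: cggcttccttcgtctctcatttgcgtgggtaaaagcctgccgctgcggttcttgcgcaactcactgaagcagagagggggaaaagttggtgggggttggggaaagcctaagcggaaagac
Ptges: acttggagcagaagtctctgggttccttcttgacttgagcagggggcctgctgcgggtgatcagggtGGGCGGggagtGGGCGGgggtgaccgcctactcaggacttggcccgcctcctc
Tbxas1: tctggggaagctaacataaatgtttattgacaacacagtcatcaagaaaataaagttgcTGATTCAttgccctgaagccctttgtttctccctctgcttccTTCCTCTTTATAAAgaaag
Hpgd: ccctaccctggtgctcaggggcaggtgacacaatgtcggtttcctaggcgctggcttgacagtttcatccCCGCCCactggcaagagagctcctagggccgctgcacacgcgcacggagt

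Within 250 bases before the start, Tbxas1 held TATAAA on both strands in overlapping matches, 13 and 11 bases before the start. It also held 1 TGANTCA, 61 bases before the start. TATAAA occurred in 12.4% and TGANTCA in 6.75% of the 32851 promoters of that table. Ptges held GGGCGG 2 times, and Hpgd and Ptgs2 1 time each, against 32.7% of promoters with at least 1 match. GAGGAA occurred in all 5 windows of 250 bases, against 23.3% of promoters, and CCAAT (33.8%) and TGACGT (6.47%) in none of them. GC content of the 250 bases was 48% for Ptgs1, 61.6% for Ptgs2, 59.6% for Ptges, 43.6% for Tbxas1 and 56.8% for Hpgd. The RefSeq starts of Tbxas1 and Ptges lie inside the GENCODE spans of these genes. Promoters of Alox5 and Ltc4s were also in the table, while Ptgis, Alox5ap and Alox15 had no entry that matched, so 7 of 10 genes matched. Alox5, which did not pass the test, also held 1 GAGGAA and 1 GGGCGG within 250 bases, and Ltc4s held none of the motifs.

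Of the cyclooxygenase genes, Ptgs1 was called higher and Ptgs2 did not pass. Ptgs1 (ENSMUSG00000047250, chromosome 2, 36230426 to 36252272, plus strand, GRCm38) encodes the form that many cells hold at rest. It was 75.3, 95, 63.3 and 82.4 CPM at day 0 and 143, 146, 106 and 112 CPM at day 7. It was 177, 219.8, 135 and 161 CPM at day 14 and 144, 205 and 134 CPM at day 21. Every library after bleomycin lay above every day 0 library, and the 3 later days overlapped each other. The log2 fold change against day 0 was 0.68 (SE 0.18, adjusted p = 0.0127) at day 7, 1.13 (SE 0.18, adjusted p = 0.000248) at day 14 and 1.03 (SE 0.19, adjusted p = 0.000953) at day 21. The day 7 call was the less stable of these. It was lost when day 0 replicate 3 (0.56) or day 7 replicate 1 (0.60) was left out, with the mitochondrial share as covariate (0.59) and within libraries of alike share (0.56), while the day 14 value was 1.16 with the covariate and 1.23 within libraries of alike share.

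Ptgs2 (ENSMUSG00000032487, chromosome 1, 150100031 to 150108227, plus strand) encodes the cyclooxygenase that is induced by cytokines and injury. It was 22.6, 25.3, 30.3 and 43.8 CPM at day 0, 30.5, 24.1, 27 and 34.1 CPM at day 7, 20.7, 29.5, 18.5 and 20.9 CPM at day 14, and 24.7, 17.2 and 19.3 CPM at day 21. Each later day overlapped day 0, and the highest value of the 15 was in day 0 replicate 4. The log2 fold change was -0.08 (SE 0.20, adjusted p = 0.808) at day 7, -0.45 (SE 0.20, adjusted p = 0.104) at day 14 and -0.58 (SE 0.22, adjusted p = 0.0597) at day 21. No day passed the test in these fits. At day 21 Ptgs2 passed as lower with DESeq2 (-0.60), with no filter on low counts (-0.62), with the covariate (-0.60), and when day 0 replicate 1 (-0.74), day 0 replicate 2 (-0.70) or day 21 replicate 1 (-0.78) was left out. At day 14 it passed without day 0 replicate 1 (-0.59) or day 14 replicate 2 (-0.63). Other fits moved it towards 0. Values without 1 library ran from -0.63 to -0.24 at day 14 and from -0.78 to -0.38 at day 21.

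The ratio of Ptgs1 to Ptgs2, each per kilobase of exon, therefore moved with the day. Its lowest, median and highest values were 2.22, 3.2 and 4.42 at day 0, and 3.86, 5.08 and 7.16 at day 7. They were 8.58, 8.94 and 10.1 at day 14 and 6.87, 8.19 and 14.1 at day 21. Ptgs1 was the higher of the pair in all 15 libraries, days 14 and 21 lay above every day 0 value, and day 7 overlapped day 0.

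Of the terminal synthases, Ptges (ENSMUSG00000050737, chromosome 2, 30889471 to 30929863, minus strand) encodes the microsomal prostaglandin E synthase, which often works together with Ptgs2. It was 24.9, 20.6, 24.6 and 24.7 CPM at day 0 and 81.7, 100.4, 58.6 and 51 CPM at day 7. It was 53, 43.2, 40.3 and 43.7 CPM at day 14 and 59.2, 48.9 and 53.2 CPM at day 21. Every later library lay above every day 0 library, and the 4 day 7 libraries were the most spread. The log2 fold change was 1.62 (SE 0.18, adjusted p = 4.17e-05) at day 7, the highest of the 10 genes at that day, 0.93 (SE 0.17, adjusted p = 0.000952) at day 14 and 1.18 (SE 0.19, adjusted p = 0.000276) at day 21. These calls held in all alternatives run, with ranges of 1.43 to 1.76, 0.77 to 0.98 and 1.07 to 1.21. Ptges rose while Ptgs2 did not pass the test in the same libraries.

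Tbxas1 (ENSMUSG00000029925, chromosome 6, 38875404 to 39084585, plus strand) encodes thromboxane A synthase, a cytochrome P450 known from platelets and macrophages. It was 12.1, 14.8, 11.6 and 12.8 CPM at day 0, 29.1, 21.9, 20.7 and 21 CPM at day 7, 51.1, 44.4, 32.8 and 42.8 CPM at day 14, and 38.9, 36.7 and 35.6 CPM at day 21. Day 0, day 7 and day 14 did not overlap, and day 21 lay within the range of day 14. The log2 fold change was 0.85 (SE 0.14, adjusted p = 0.00086) at day 7, 1.74 (SE 0.15, adjusted p = 1.82e-06) at day 14 and 1.53 (SE 0.15, adjusted p = 8.25e-06) at day 21. All 3 calls held in every alternative run, with ranges of 0.70 to 0.90, 1.62 to 1.84 and 1.45 to 1.57.

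Ptgis (ENSMUSG00000017969, chromosome 2, 167191805 to 167240604, minus strand) encodes prostacyclin synthase, the vascular counterpart of thromboxane synthase. It was 132, 119, 103 and 131 CPM at day 0, 121, 183, 133 and 88.5 CPM at day 7, 138, 118, 94.3 and 71.8 CPM at day 14, and 129, 119.7 and 104 CPM at day 21. All days overlapped. The log2 fold change was 0.12 (SE 0.21, adjusted p = 0.711), -0.20 (SE 0.21, adjusted p = 0.482) and -0.04 (SE 0.22, adjusted p = 0.903) at days 7, 14 and 21, and none passed the test. The ratio of Ptgis to Tbxas1 per kilobase of exon had lowest, median and highest values of 28.5, 33.8 and 38.6 at day 0, 14.8, 18.8 and 29.6 at day 7, 5.95, 9.48 and 10.2 at day 14, and 10.4, 11.6 and 11.8 at day 21. Ptgis remained above Tbxas1 per kilobase in every library, and the ratios of days 14 and 21 lay below all those of day 0 and day 7. An antisense transcript, 1110018N20Rik, covers 6.08% of the exon bases of Ptgis.

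Marker genes of cell types did not all move in the direction of these values. The summed level of 6 markers of monocyte-derived and interstitial macrophages (C1qa, C1qb, C1qc, Adgre1, Csf1r, Cx3cr1) was 258 to 333 CPM at day 0, 700.0 to 1003.7 CPM at day 7, 758 to 1842.1 CPM at day 14 and 833 to 1372.3 CPM at day 21. Of the 6, 4 were higher at day 7, 5 at day 14 and 4 at day 21, and none was at 0 throughout a group. The 6 alveolar macrophage markers (Marco, Siglecf, Chil3, Ear2, Krt79, Fabp1) did not move together. Their sum was 724 to 1054.8 CPM at day 0, 479.6 to 1208.5 CPM at day 7, 891 to 3403.0 CPM at day 14 and 1152.8 to 2393.7 CPM at day 21, and most of it was Chil3, which averaged 757 CPM at day 0 and 1561.4 CPM at day 14. Of the 6, 0 were higher and 3 lower at day 7, 1 and 2 at day 14, and 0 and 3 at day 21, and Krt79 went from 34.9 CPM at day 0 to 1.55 CPM at day 14 and 0.426 CPM at day 21. The 6 platelet markers (Pf4, Ppbp, Itga2b, Gp9, Gp1ba, Gp6) summed to 45.6 to 78.1 CPM at day 0, 32.3 to 49.3 CPM at day 7, 25.6 to 49.2 CPM at day 14 and 38.5 to 69.2 CPM at day 21. Of the 6, 0 were higher and 2 lower at day 7, 0 and 5 at day 14, and 1 and 1 at day 21. Pf4 averaged 12.6 CPM at day 0, 21.7 CPM at day 14 and 28.1 CPM at day 21, where it was called higher, and Ppbp went from 24.1 CPM at day 0 to 5.2 and 4.18 CPM at days 14 and 21, lower at both. The 7 fibroblast markers (Col1a1, Col1a2, Col3a1, Pdgfra, Pdgfrb, Postn, Cthrc1) summed to 1492.7 to 2026.4 CPM at day 0, 5041.2 to 6270.2 CPM at day 7, 3815.7 to 13756 CPM at day 14 and 5148.8 to 10015 CPM at day 21. Of the 7, 3 were higher at day 7, 5 at day 14 and 6 at day 21, and 0 were lower. Col1a1, Col1a2 and Col3a1 averaged 313, 437 and 417 CPM at day 0 and 1437.0, 1466.8 and 1957.1 CPM at day 7. Pdgfra averaged 358, 430.5, 305 and 412 CPM at days 0, 7, 14 and 21. The part of each cell type in the rise of Ptgs1, Ptges and Tbxas1 was not tested.

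Hpgd (ENSMUSG00000031613, chromosome 8, 56294585 to 56321043, plus strand) encodes the 15-hydroxyprostaglandin dehydrogenase, which carries out the first step of prostaglandin breakdown and is abundant in lung. It was 888, 683, 905 and 921 CPM at day 0 and 362, 359, 490.0 and 402 CPM at day 7. It was 173, 369, 389 and 329 CPM at day 14 and 224, 510.0 and 242 CPM at day 21. Every library after bleomycin lay below every day 0 library, and the later days overlapped each other. Hpgd fell to 0.475 of its day 0 level at day 7 (log2 fold change -1.08, SE 0.26, adjusted p = 0.00908), to 0.371 at day 14 (-1.43, SE 0.27, adjusted p = 0.00088) and to 0.383 at day 21 (-1.38, SE 0.29, adjusted p = 0.00255). The day 7 call was lost with the mitochondrial share as covariate (-0.76) and kept within libraries of alike share (-0.98). At day 14 these values were -1.54 and -1.34. At day 21 replicate 2 stood apart at 510.0 CPM, and without it the value was -1.90.

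The ratio of Ptges to Hpgd per kilobase of exon sets a prostaglandin E synthase beside the enzyme that inactivates its product. Its lowest, median and highest values were 0.0115, 0.0118 and 0.0129 at day 0, 0.0512, 0.0755 and 0.12 at day 7, 0.0443, 0.0535 and 0.131 at day 14, and 0.0411, 0.094 and 0.113 at day 21. The 11 later libraries all lay above the 4 day 0 libraries, and Hpgd remained the higher of the pair per kilobase throughout. The 5 alveolar type 2 markers (Sftpc, Sftpb, Sftpa1, Lamp3, Abca3) summed to 25529 to 35472 CPM at day 0, 16251 to 24681 CPM at day 7, 6607.7 to 19405 CPM at day 14 and 4220.5 to 8889.7 CPM at day 21. Most of this sum was Sftpc, which averaged 19388 CPM at day 0 and 13938 CPM at day 7. Of the 5, 0 were higher or lower at day 7, 3 were lower at day 14 and 5 at day 21. At day 7 Sftpb, Lamp3 and Abca3 averaged 4654.6, 710.4 and 410.2 CPM, against 4495.3, 715 and 382 CPM at day 0. Sftpa1 averaged 2559.0 CPM (2124.6 to 3057.9) at day 7, against 4121.1 CPM (3872.6 to 4363.3) at day 0, without overlap. The 6 endothelial markers (Pecam1, Cdh5, Kdr, Cldn5, Vwf, Tek) summed to 2959.3 to 3688.2, 2438.5 to 2989.8, 2074.1 to 3076.8 and 2839.3 to 3632.4 CPM at these days. They parted at day 21, where Vwf was higher (657 CPM at day 0, 1285.4 CPM at day 21), Kdr was lower (384 and 197 CPM), and Pecam1, Cdh5, Cldn5 and Tek, at 564, 577, 242 and 279 CPM against 812, 772, 375 and 390.4 CPM at day 0, did not pass both thresholds. At day 7, 0 of the 6 were higher and 1 was lower, and at day 14, 0 were higher and 3 were lower. The part of these cells in the fall of Hpgd was not tested.

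**Figure D2:**
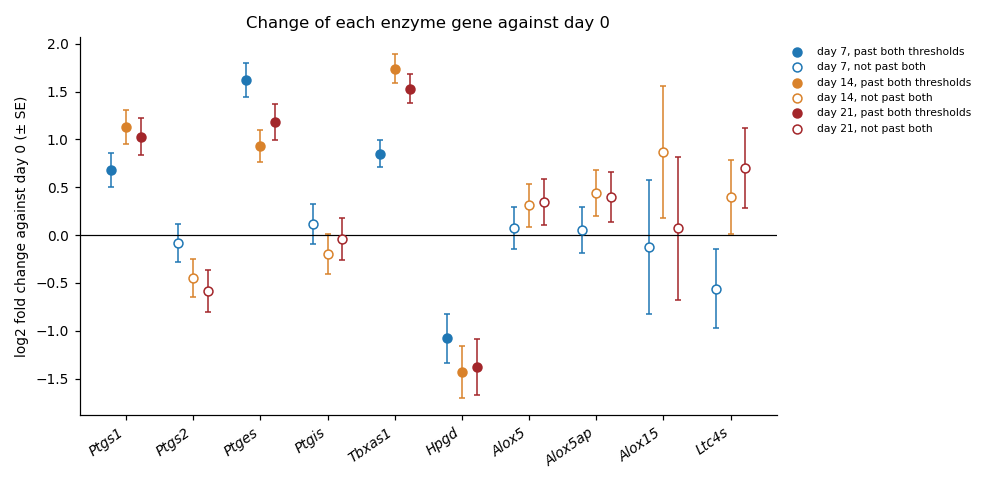
Log2 fold change against day 0 (y axis, bars ± SE from edgeR) of the 10 enzyme genes (x axis) at days 7, 14 and 21; filled circles passed both thresholds and open circles did not. Ptges was highest at day 7 (1.62) and Tbxas1 at day 14 (1.74), Hpgd lay between -1.43 and -1.08, and the bars of Alox15 were the widest (SE 0.69 to 0.75).

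Alox5, Alox5ap, Ltc4s and Alox15 gave no call against day 0 in these fits. Alox5 (ENSMUSG00000025701, chromosome 6, 116410077 to 116461178, minus strand) encodes 5-lipoxygenase, the enzyme that starts leukotriene synthesis. It was 21.6, 25.5, 21.6 and 20.6 CPM at day 0, 25.8, 29.6, 18.4 and 19.9 CPM at day 7, 37.1, 31.9, 22.4 and 19.3 CPM at day 14, and 37.3, 19.8 and 28.2 CPM at day 21. The days overlapped, and the spread grew from an SD of 2.14 CPM at day 0 to 8.28 CPM at day 14 and 8.73 CPM at day 21. The log2 fold changes were 0.07 (SE 0.22), 0.31 (SE 0.22) and 0.35 (SE 0.24), with adjusted p of 0.845, 0.307 and 0.294 from edgeR.

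Alox5ap (ENSMUSG00000060063, chromosome 5, 149264767 to 149288153, plus strand) encodes the membrane protein that presents arachidonic acid to 5-lipoxygenase. It was 10.9, 17.4, 8.95 and 10.2 CPM at day 0, 15.4, 11.2, 11.7 and 10.8 CPM at day 7, 15.5, 23.9, 13.9 and 11.2 CPM at day 14, and 18.7, 12.9 and 15.4 CPM at day 21. Replicate 2 set the top of its day 0 range, and all days overlapped. The log2 fold changes were 0.05 (SE 0.24), 0.44 (SE 0.24) and 0.40 (SE 0.26), with adjusted p of 0.896, 0.174 and 0.262 from edgeR. Without day 0 replicate 2 the day 14 value was 0.66 and passed. The antisense gene Gm19719 covers 13.3% of the exon bases of Alox5ap.

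Ltc4s (ENSMUSG00000020377, chromosome 11, 50236461 to 50238616, minus strand) encodes leukotriene C synthase, which joins glutathione to leukotriene A and is known from mast cells, eosinophils and macrophages. It was scarce, with 7 to 42 counts per library. It was 0.777, 1.45, 0.889 and 1.23 CPM at day 0, 0.51, 1.23, 0.384 and 0.832 CPM at day 7, 1.18, 1.98, 0.973 and 1.63 CPM at day 14, and 2.6, 1.54 and 1.18 CPM at day 21. Each later day overlapped day 0, and the log2 fold changes of -0.56 (SE 0.41), 0.40 (SE 0.39) and 0.70 (SE 0.42) had adjusted p of 0.335, 0.466 and 0.228 from edgeR. The antisense gene Gm26542 covers 26.4% of its exon bases, so reads from the pair cannot be told apart where strand was not used in counting. Of 6 mast cell markers Kit, which other lung cells also express, made up most of the sum at 203 CPM at day 0 and 154 CPM at day 14. Cpa3, the mast cell carboxypeptidase, was 1.89, 1.79, 3.15 and 1.88 CPM on average at the 4 days, and Mcpt4, Cma1, Tpsb2 and Fcer1a were each at or under 1.44 CPM. The median log2 fold change of the 4 of these markers that were tested was -0.29, -0.46 and -0.13 at days 7, 14 and 21. At day 21 the 4 ran from -2.20 to 1.27, and 0 were called. Cma1 averaged 0.664 CPM at day 0 and 0.135 CPM at day 21, and Mcpt4 0.59 and 1.44 CPM. The part of mast cells in the Ltc4s values was not tested.

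Alox15 (ENSMUSG00000018924, chromosome 11, 70344152 to 70352031, minus strand) encodes the mouse 12/15-lipoxygenase, known from resident macrophages and eosinophils. It ranged from 1 to 95 counts per library. It was 2.2, 2.72, 0.0635 and 0.837 CPM at day 0, 1.36, 1.23, 1.81 and 0.951 CPM at day 7, 5.61, 2.87, 1.26 and 0.906 CPM at day 14, and 1.42, 2.45 and 0.706 CPM at day 21. The SD was 1.22 CPM around a mean of 1.46 CPM at day 0 and 2.15 CPM around 2.66 CPM at day 14, and all days overlapped. The log2 fold changes of -0.12 (SE 0.70), 0.87 (SE 0.69) and 0.07 (SE 0.75) had adjusted p of 0.92, 0.358 and 0.953 from edgeR, so a change of the size seen for Ptgs1 was not detectable for this gene. Without 1 library the day 14 value ran from 0.18 to 1.34. Of 4 eosinophil markers, Prg2, Epx and Ccr3 were each under 1 CPM on average at all 4 days. The other, Ear6, was 0.129, 0, 0.19 and 1.23 CPM at day 0, 0.623 to 1.04 CPM at day 7, 1.48, 9.76, 1.43 and 0.483 CPM at day 14, and 6.99, 0.399 and 0.529 CPM at day 21. A single library stood high at each of days 14 and 21. Ear6 was called higher at day 14 (log2 fold change 3.01), but not without day 14 replicate 2 (1.46) or day 0 replicate 1 (2.71), 2 (2.58) or 3 (2.77). This call was also lost with limma voom (3.19), total count scaling (2.97), the replicate block (2.88) and the 2 days alone (2.98), and within libraries of alike share (2.40). Their part in the Alox15 values was not tested.

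The order of levels can be compared between genes only per length. Per kilobase of exon (all exons of a gene merged), Hpgd led at day 0 with 505 ± 66.2 CPM per kb (SD, n = 4), followed by Ptgis at 47.2 ± 5.18 and Ptgs1 at 20.3 ± 3.41, and these 3 did not overlap. Alox5ap at 8.34 ± 2.65, Ptgs2 at 6.66 ± 2.06, Ptges at 6.03 ± 0.535 and Alox5 at 5.44 ± 0.52 CPM per kb came next, each overlapping its neighbour in the order. Tbxas1 at 1.41 ± 0.152, Ltc4s at 1.07 ± 0.306 and Alox15 at 0.593 ± 0.498 CPM per kb were lowest, again with overlap between neighbours. At day 7 Ptgs1 (27.3 to 37.6 CPM per kb) and Ptgis (34.5 to 71.4 CPM per kb) overlapped. At day 14 Hpgd still led at 187 ± 58.1 CPM per kb. Ptgs1 at 44.6 ± 9.17 then stood beside Ptgis at 41.1 ± 11.1 CPM per kb, with overlap, and Tbxas1 at 4.7 ± 0.83 overlapped Ptgs2 at 4.9 ± 1.06 CPM per kb. At day 21 Ptgs1 (41.5 ± 9.91, n = 3) and Ptgis (45.8 ± 4.96) overlapped as well, and Ptges stood at 13.7 ± 1.31 CPM per kb.

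**Figure D3:**
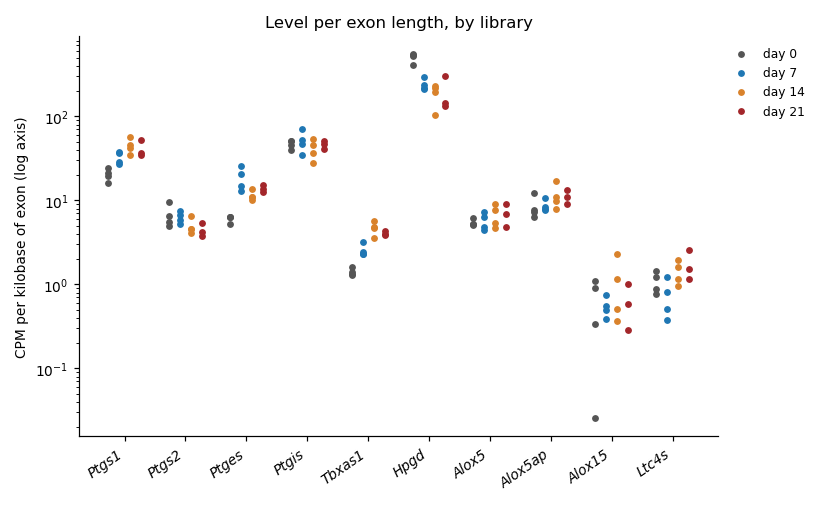
CPM per kilobase of exon (y axis, log scale) of the 10 genes (x axis) in each library, coloured by day. Hpgd led in all 15 libraries, Ptgs1 overlapped Ptgis at days 7, 14 and 21, and by day 14 Tbxas1 overlapped Ptgs2.

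Between later days few of the 10 genes differed. Day 14 against day 7 gave 1 gene higher and 1 lower, where 2.77% of all tested genes were higher and 3.23% lower. Tbxas1 was higher at day 14 (log2 fold change 0.88, SE 0.14, adjusted p = 0.00486), and Ptges was lower (-0.69, SE 0.17, adjusted p = 0.0269), with Ptges ranges that overlapped. The Ptges call was lost in a fit to these 2 days alone (-0.69), with the covariate (-0.65), without day 7 replicate 1 (-0.64) or replicate 2 (-0.50), and without day 14 replicate 2 (-0.67), replicate 3 (-0.64) or replicate 4 (-0.68). Day 21 against day 7 gave 1 gene higher and 0 lower, against 5.2% and 4.34% of all genes. That gene was Tbxas1 (0.68, SE 0.15, adjusted p = 0.0119), and its call was lost without day 21 replicate 1 (0.62). Ltc4s missed the threshold in that comparison (1.25, SE 0.42, adjusted p = 0.062) and passed with DESeq2 (1.26) and without day 7 replicate 2 (1.61). The count without 1 library therefore ran from 0 to 2. Day 21 against day 14 gave 0 of the 10 genes with edgeR, 0 with DESeq2 and 0 at an unadjusted p under 0.05. Among all genes edgeR called 0% either way and DESeq2 called 106 genes. The log2 fold changes ran from -0.80 (Alox15, SE 0.75) to 0.30 (Ltc4s, SE 0.41). The Alox15 value ran from -1.35 to -0.13 without 1 library.

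The other genes of the pathway were followed with a list of 49, of which 39 were tested. At day 7, 7 of the 39 were higher and 5 lower (17.9% and 12.8%, against 8.78% and 7.36% of all tested genes). At day 14 the counts were 10 and 7 (25.6% and 17.9%, against 12% and 11.2%), and at day 21 they were 11 and 6 (28.2% and 15.4%, against 12.4% and 10.1%). Their median log2 fold change was 0.03, 0.15 and -0.04, and that of all tested genes 0.01, 0.02 and 0.02. The 10 untested genes were Akr1c18, Alox12b, Alox12e, Alox8, Ltb4r2, Oxgr1, Pla2g10, Pla2g5, Ptgdr and Ptgdr2. Compared with day 7, 3 were higher and 3 lower at day 14 (7.69% each way, against 2.77% and 3.23% of all tested genes). At day 21 these counts were 5 and 5 (12.8% each way, against 5.2% and 4.34%). For day 21 against day 14 the count was 0 with edgeR and 0 with DESeq2, with 8 at an unadjusted p under 0.05. With the mitochondrial share as covariate the day 7 count fell from 12 to 5, and that of all tested genes from 2818 to 1269.

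Of 8 phospholipases tested, 1 was higher and 2 were lower at day 7, 2 and 1 at day 14, and 1 and 1 at day 21. These are 12.5% and 25% at day 7 (8.78% and 7.36% of all tested genes), 25% and 12.5% at day 14 (12% and 11.2%), and 12.5% each way at day 21 (12.4% and 10.1%). Pla2g1b, a secreted enzyme, fell from 12.1 ± 2.25 CPM at day 0 to 1.22 ± 0.0801 CPM at day 21 (log2 fold change -1.16, -2.25 and -3.30 at days 7, 14 and 21). Pla2g7, which encodes the platelet-activating factor acetylhydrolase, was 21.9 ± 8.32 CPM at day 0 and was higher at day 14 (1.16) and day 21 (1.37), though not without day 14 replicate 1 (0.81) or day 21 replicate 1 (1.02). Pla2g4a, the cytosolic enzyme that supplies arachidonic acid, was higher at day 7 (0.62, SE 0.18, adjusted p = 0.0208 from edgeR), and this was lost with the covariate (0.34), within libraries of alike share (0.37), with genes of a mean of at least 1 CPM (0.58), and without day 0 replicate 3 (0.47) or 4 (0.56) or day 7 replicate 1 (0.57) or 2 (0.57). Pla2g4b and Pla2g4c were at or under 1.04 CPM on average. Pla2g4b was lower at day 7 (-1.64), which was lost with the covariate (-1.33), within libraries of alike share (-1.46) and without day 0 replicate 2 (-1.59) or 3 (-1.43) or day 7 replicate 1 (-1.39) or 3 (-1.49). Pla2g4c was higher at day 14 (1.16), which was lost with DESeq2 (1.16), no filter (1.14) or limma voom (1.09), within libraries of alike share (0.91) and without day 0 replicate 1 (1.16), 2 (1.0) or 4 (1.10) or day 14 replicate 1 (1.06) or 3 (0.94). Within libraries of alike share, Pla2g1b did not pass at day 7 (-0.95), and with the covariate it did not either (-0.70).

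Of 10 other synthases tested, 1 was higher and 0 lower at day 7, 1 and 1 at day 14, and 1 and 0 at day 21. Among all tested genes 8.78%, 12% and 12.4% were higher at these days and 7.36%, 11.2% and 10.1% lower, so 10% of the synthases is near the background. Hpgds, the prostaglandin D synthase of blood-derived cells, rose from 2.74 ± 1.22 CPM at day 0 to 8.24 ± 2.16 CPM at day 7, 18.2 ± 5.94 CPM at day 14 and 21 ± 3.23 CPM at day 21. Its log2 fold changes were 1.58 (SE 0.31, adjusted p = 0.00215), 2.73 (SE 0.31, adjusted p = 1.42e-05) and 2.93 (SE 0.32, adjusted p = 1.55e-05) from edgeR, and every later library lay above every day 0 library. Within libraries of alike share the day 7 and day 14 values were 2.26 and 2.00, and both passed. Alox12, the platelet-type 12-lipoxygenase, was lower at day 14 (-0.81, SE 0.22, adjusted p = 0.0109), with values of -0.41 and -0.40 at days 7 and 21 that did not pass. Lta4h, which makes leukotriene B, was at 66.2 ± 5.3 CPM at day 0 and did not pass at any day (0.01, -0.04 and -0.21, each with an SE of at most 0.11).

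Of 10 genes of breakdown and transport, 1 was higher and 1 lower at day 7, 2 and 2 at day 14, and 4 and 3 at day 21. At day 7 this is 10% each way, near the 8.78% and 7.36% of all tested genes, at day 14 it is 20% each way, against 12% and 11.2%, and at day 21 it is 40% and 30%, against 12.4% and 10.1%. Dpep1 and Dpep2 encode dipeptidases that trim leukotriene D, and they parted. Dpep1 fell from 184 ± 7.11 CPM at day 0 to 39.5 ± 21.1 CPM at day 14 (-2.22) and 32.4 ± 15.7 CPM at day 21 (-2.50), while Dpep2 rose from 11.1 ± 2.79 CPM to 29.3 ± 14.5 CPM (1.40) and 43.6 ± 13.7 CPM (1.97). At day 7 neither passed (-0.86 and 0.56). Within libraries of alike share the day 14 value of Dpep2 was 0.72 and passed. Ggt1 and Ggt5 encode glutamyltransferases that act on leukotriene C. Ggt1 was 3.11 ± 0.883 CPM at day 0 and was lower at days 7 and 14 (-1.91 and -2.19) and at day 21 (-1.11), where the call was lost with no filter (-1.15), for the 2 days alone (-1.14), and without day 0 replicate 1 (-0.99), 3 (-1.13) or 4 (-1.12) or day 21 replicate 2 (-0.83) or 3 (-1.02). Without 1 library the day 21 value of Ggt1 ran from -1.72 to -0.83. Ggt5 was lower at day 21 (-1.22).

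Carriers were among the genes higher at day 21. Slco2a1, the prostaglandin uptake carrier, was 583 ± 114 CPM at day 0 and 1026.0 ± 314 CPM at day 21 (0.82, SE 0.19, adjusted p = 0.00454), and the call was lost without day 21 replicate 2 (0.49). Abcc4, a prostaglandin exporter, was higher at days 7, 14 and 21 (0.68, 0.69 and 1.14). Without day 0 replicate 3 its day 7 and day 14 values were 0.53 and 0.55, without day 14 replicate 1 the day 14 value was 0.55, and all of these were under the fold threshold. At day 7 Abcc4 also did not pass with the covariate (0.45) or within libraries of alike share (0.41). Abcc1, which exports leukotriene C, was higher at day 21 (0.64, SE 0.15, adjusted p = 0.00449), and the call was lost without day 0 replicate 3 (0.53) or day 21 replicate 1 (0.45).

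Of 11 receptors, 4 were higher and 2 lower at day 7, 5 and 3 at day 14, and 5 and 2 at day 21. The higher shares were 36.4%, 45.5% and 45.5%, against 8.78%, 12% and 12.4% of all tested genes, and the lower shares 18.2%, 27.3% and 18.2%, against 7.36%, 11.2% and 10.1%. Among receptors for prostaglandin E, Ptger4 rose from 9.44 ± 1.52 CPM to 28.7 ± 8.38, 29.1 ± 8.56 and 27.2 ± 8.06 CPM at days 7, 14 and 21 (1.60, 1.62 and 1.52), and Ptger3 from 1.77 ± 0.255 CPM to 5.57 ± 1.73, 5.67 ± 0.654 and 6.45 ± 0.582 CPM (1.65, 1.68 and 1.86). Ptger2 was higher at days 14 and 21 (0.80 and 0.79), though not without day 14 replicate 1 (0.54), within libraries of alike share at day 14 (0.42), or without day 21 replicate 1 (0.68) or 3 (0.68). Ptgir, the prostacyclin receptor, rose from 5.38 ± 0.487 CPM to 14.8 ± 4.95 CPM at day 7 (1.46) and was 1.25 and 1.24 higher on the log2 scale at days 14 and 21. Cysltr1, a receptor for cysteinyl leukotrienes, was higher at all 3 days (0.96, 0.77 and 1.15), though not at day 7 with the covariate (0.84) or at day 14 within libraries of alike share (0.75). Cysltr2 was lower at day 14 (-1.31, and -1.24 within libraries of alike share, which did not pass), with -0.96 and -0.27 at days 7 and 21, which did not pass.

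Ptgfr, the receptor of prostaglandin F, fell the most of the tested receptors at days 14 and 21. It was 17.3 ± 4.28 CPM at day 0, 6.83 ± 2.06 CPM at day 7, 2.33 ± 1.75 CPM at day 14 and 1.74 ± 0.346 CPM at day 21, with log2 fold changes of -1.34 (SE 0.40, adjusted p = 0.0237), -2.88 (SE 0.43, adjusted p = 0.000152) and -3.31 (SE 0.50, adjusted p = 0.000193) from edgeR. Its day 7 call was lost with the covariate (-0.68) and without day 0 replicate 3 (-1.23) or 4 (-1.28) or day 7 replicate 1 (-1.31) or 2 (-1.18). Fpr2, which binds formyl peptides as well as lipoxin A, was lower at all 3 days (-1.55, -1.21 and -1.73), though not at day 7 with the covariate (-1.33) or at day 14 within libraries of alike share (-1.02). The 5 neutrophil markers (S100a8, S100a9, Ly6g, Retnlg, Cxcr2), of cells that also express Fpr2, summed to 317 to 612 CPM at day 0 and to 56.8 to 212, 74.2 to 371 and 44.7 to 119 CPM at days 7, 14 and 21. The largest of them was S100a9, at 254 CPM on average at day 0. Of the 5, 0 were higher and 3 lower at day 7, 0 and 1 at day 14, and 0 and 4 at day 21. The part of neutrophils in the Fpr2 values was not tested.

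**Figure D4:**
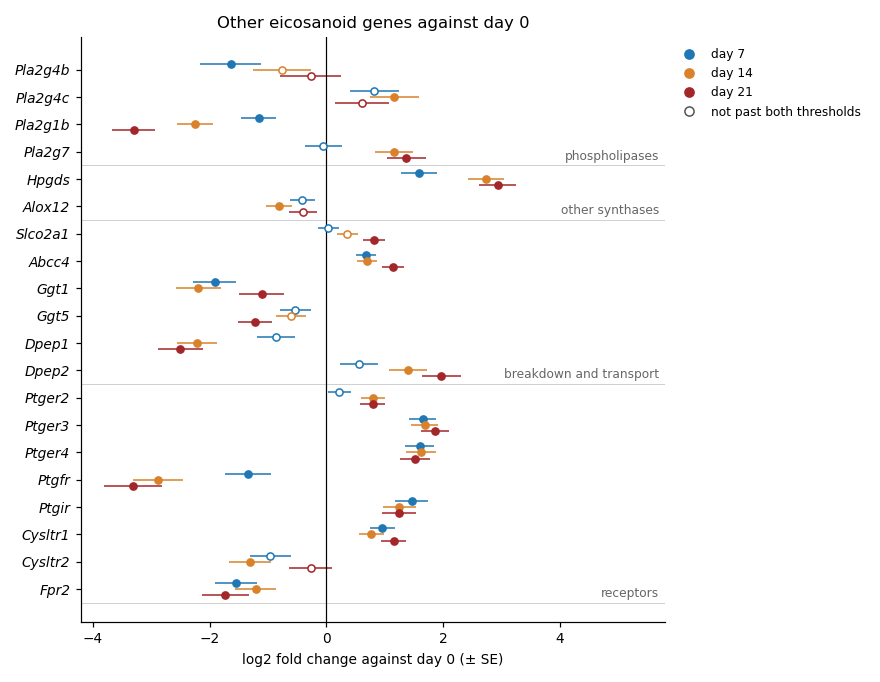
Log2 fold change against day 0 (x axis, bars ± SE from edgeR) of 20 other eicosanoid genes (y axis), grouped by role and coloured by day; filled circles passed both thresholds and open circles did not. Hpgds rose to 2.93 and Pla2g1b and Ptgfr fell to -3.30 and -3.31 at day 21, while Ptger3, Ptger4, Ptgir and Cysltr1 were higher at all 3 days.

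Across the 15 libraries the genes with the pattern most like each of the 10 were sought among tested genes with a mean of at least 5 CPM, by Pearson's r of log2 CPM. These values are descriptions, since all libraries of a day share its change. For Tbxas1 the nearest were Galc (0.973), Acp5 (0.973) and Cd200r1 (0.972). For Ptgs1 they were Rasl10b (0.970), Ctsh (0.955) and Tmem37 (0.952), and for Hpgd Tspan7 (0.980), Ankrd63 (0.972) and Wscd1 (0.964). For Ptges, Scfd1 (0.954) and Cyp7b1 (0.940) were among the nearest 3. By this r the nearest genes of the uncalled members were farther away, with C5ar1 (0.888) for Alox5, Mtm1 (0.884) for Ltc4s, Lrrc58 (0.876) for Alox15, Tcea3 (0.839) for Ptgs2, Nlrx1 (0.836) for Alox5ap and Nup133 (0.792) for Ptgis. With the mean of each day removed this order did not hold. The r was then 0.70 for Galc, 0.87 for Rasl10b, 0.95 for Tspan7 and 0.67 for Scfd1. For the uncalled members it was 0.92 for C5ar1, 0.83 for Mtm1, 0.93 for Lrrc58, 0.73 for Tcea3, 0.80 for Nlrx1 and 0.82 for Nup133. Among the 10 genes themselves, Ptgs1 and Tbxas1 had an r of 0.92 over the 15 libraries, and of 0.61 after the mean of each day was removed. Alox5 and Alox5ap, which act in 1 step of leukotriene synthesis, had an r of 0.70, and of 0.63 after removal of the day means.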

How the data were processed

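Whole lung RNA of 15 mouse libraries was sequenced after a NEBNext Ultra kit as paired reads of 150 bases. The authors trimmed reads with TrimGalore 0.6.10, aligned them to GRCm38 with HISAT2 2.1.0, dropped multi-mapped reads and deposited raw counts per Ensembl gene from HTSeq 0.6.0, with no normalization. The annotation release and strand setting of the counting are not given in the sources used here, so overlapping and antisense genes carry that uncertainty. Symbols, positions and exon lengths came from GENCODE M21 on the same build (33267 of 33340 identifiers matched, the others held 0.00889% of counts). Groups and replicate numbers came from the sample titles, while the design text of the series gives fewer libraries for some days.

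Counts were tested with edgeR 4.0.16 in R 4.3.3 (filterByExpr, TMM, estimateDisp, glmQLFit, glmQLFTest), with a model of day alone over the 15 libraries together. Adjustment was over 17457 genes. The common biological coefficient of variation was 22.8%. The thresholds (adjusted p under 0.05, fold over 1.5) are those of the study. Printed CPM are TMM-adjusted. Likeness used log2 CPM with a prior count of 2. Nothing in the labels ties libraries to separate animals, so p-values measure the spread between these libraries. Precision is limited by counting error for genes of few counts.

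The members, the pathway list (phospholipases, other synthases, breakdown and transport, receptors), the marker lists and the alternatives were chosen with earlier results of these data known. Pathway genes changed against day 0 were named up to 20 by the largest change, 22 qualified, and Pla2g4a, Abcc1 and Lta4h were added after their values were seen. Prxl2b is listed under its older symbol Fam213b. Some markers, 1 marker list and a gene of like pattern are not reported here. The other marker lists stand in the closing section. Alternatives were DESeq2 1.42.0, no filter on low counts, scaling to total counts or by RLE, a minimum mean of 1 CPM, the 2 days alone, a replicate block, limma 3.58.1 voom, the log2 share of 16 mitochondrial genes as covariate, libraries of alike share (under 2.5% or over 3.5%), adjusted p alone, and leaving out each library.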

Additional observations from a re-analysis of the deposited data

Results flagged for a closer look

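In a group of 4 libraries, a value whose gap to its nearest neighbour was above Dixon's 95% critical share of the range was picked out. Of 90 groups in 30 genes 4 were picked out, and chance alone gives about 5%. Day 0 replicate 2 had Ptges at 20.6 CPM, while its 3 fellow libraries had 24.6 to 24.9 CPM. Hpgd was 683 CPM in the same library, against 888 to 921 CPM. Tbxas1 was 29.1 CPM in day 7 replicate 1, against 20.7 to 21.9 CPM, and this library also had the highest sum of monocyte-derived and interstitial macrophage markers of day 7 (1003.7 CPM, others 700.0 to 722 CPM). Ptger4 was 41.9 CPM in day 14 replicate 1, against 24 to 25.6 CPM. Of all libraries this one had the highest fibroblast sum (13756 CPM) and the highest sum of monocyte-derived and interstitial macrophage markers (1842.1 CPM). Of the day 14 libraries it had the lowest alveolar type 2 sum (6607.7 CPM) and the lowest mitochondrial share (2.1%, others 3.74% to 4.14%).

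The change against day 0 differed between days for 2 of the 10 enzyme genes by a direct edgeR test. Ptges was lower at day 14 than at day 7 (log2 fold change -0.69, adjusted p = 0.0269, lower in 3 of 4 libraries than every day 7 library). Tbxas1 was higher at day 14 than at day 7 (0.88, adjusted p = 0.00486, in 4 of 4 libraries) and higher at day 21 than at day 7 (0.68, adjusted p = 0.0119, in 3 of 3 libraries). The alternatives under which these calls were lost stand beside them in the report.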

How the results depend on the processing

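Of 1852 alternative values of single genes, 1719 kept their direction and their side of the thresholds, 68 no longer passed, 12 passed only in the alternative and 53 changed sign. All sign changes were in genes that did not pass. The number of the 10 genes called at day 7 was 2 with the mitochondrial share as covariate (1269 of all tested genes, against 2818 without it), and 3 to 4 without 1 library; at days 14 and 21 it was 4 to 5 without 1 library. For day 14 against day 7 it was 1 for the 2 days alone (959 of all genes, against 1048), 1 with the covariate (218) and 1 to 2 without 1 library. For day 21 against day 7 it was 2 with DESeq2 (2260 of all genes, against 1665), 2 with the replicate block (1651) and 0 to 2 without 1 library. Pathway genes called were 5 at day 7 with the covariate, and 3 for day 14 against day 7 both for the 2 days alone and with the covariate. Fits within libraries of alike share were run only for days 7 and 14 against day 0, since the other comparisons left too few libraries, and 2 alternatives gave no value for Pla2g4b at day 7 and for Pla2g4c at day 14.

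Sign changes at day 7 were, with the covariate, Ptgs2 0.22, Ptgis -0.03, Alox5 -0.08, Alox5ap -0.05 and Lta4h -0.07. Within libraries of alike share they were Ptgs2 0.25, Alox5 -0.02, Alox5ap -0.22 and Lta4h -0.08, with Lta4h at 0.03 at day 14. Lta4h was also -0.02 with DESeq2, RLE factors and the 2 days alone, -0.01 with no filter and -0.03 with a mean of at least 1 CPM. With limma voom Alox15 was 0.66 at day 7 and Alox5ap 0.0044 for day 21 against day 14. For day 21 against day 7 Ptgis was 0.02 with the covariate. Without 1 library the day 7 values ran from -0.23 to 0.13 for Ptgs2, -0.09 to 0.27 for Ptgis, -0.06 to 0.17 for Alox5, -0.10 to 0.27 for Alox5ap, -0.53 to 0.36 for Alox15 and -0.06 to 0.06 for Lta4h. Those of day 21 against day 0 ran from -0.49 to 0.54 for Alox15. Those of day 21 against day 7 ran from -0.31 to 0.04 for Ptgis and -0.36 to 0.51 for Alox15. Those of day 21 against day 14 ran from -0.33 to 0.02 for Ptgs1, -0.31 to 0.01 for Ptgs2, -0.44 to 0.25 for Hpgd, -0.22 to 0.22 for Alox5, -0.19 to 0.20 for Alox5ap and -0.09 to 0.50 for Ltc4s. The cause was not tested.

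Replicate numbers did not pair the libraries: deviations of same-numbered libraries correlated from -0.244 to 0.397. With the replicate block Alox15 was 0.26 at day 7, -0.03 at day 21 against day 0 and -0.29 for day 21 against day 7, Alox5 was -0.02 for day 21 against day 14, and Ltc4s passed for day 21 against day 7 (1.41).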

Other observations

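Further marker sums are given here in CPM, from the lowest to the highest library at days 0, 7, 14 and 21. Smooth muscle (Acta2, Myh11, Cnn1, Des) ran from 259.7 to 349, 514 to 607, 413 to 1022.4 and 349 to 920.5, and mesothelium (Msln, Upk3b, Wt1, Lrrn4) from 168 to 302, 103 to 453, 383 to 909 and 399.8 to 658. Alveolar type 1 cells (Ager, Hopx, Rtkn2, Aqp5, Pdpn) ran from 2823.8 to 4185.3, 3093.2 to 3654.9, 2835.9 to 4782.2 and 1514.6 to 3614.1, and multiciliated cells (Foxj1, Ccdc39, Dnah5, Rsph1) from 152 to 257, 175 to 314, 60.0 to 144 and 79.7 to 184. T cells (Cd3e, Cd3d, Cd3g, Trac) ran from 13.7 to 24.6, 11.1 to 36.3, 9.28 to 16 and 5.7 to 18.6, and the basophil pair Mcpt8 and Gata2 from 156 to 203, 83.3 to 171, 83.4 to 122 and 101 to 166, nearly all of it Gata2 (170.4 CPM at day 0, against 0.224 CPM for Mcpt8). Heart genes (Myh6, Myl7, Nppa, Actc1, Tnnt2) ran from 18.2 to 224, 24.1 to 558, 18.7 to 36.1 and 11.8 to 665, and fat genes (Adipoq, Cfd, Plin1, Car3, Lep) from 1.55 to 51.6, 4.64 to 127, 0.4 to 0.65 and 0.228 to 2.41. Mast cell markers ran from 192 to 214, 106 to 191, 102 to 212 and 144 to 201, and eosinophil markers from 0.423 to 1.67, 0.951 to 2.14, 0.604 to 10.5 and 0.57 to 8.53.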
